A study of Mus musculus with 8 samples.

Results

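The 4 mouse orphan nuclear receptor genes Nr5a1, Nr5a2, Nr0b1 and Nr0b2 were followed through the differentiation of embryonic stem cells (ESCs) into testis-like somatic and germ cells. They were chosen by name as the members of the NR5A and NR0B families, and are 4 of the 46078 gene IDs counted in every library. Nr5a1, also called Sf1, and Nr5a2, also called Lrh1, encode transcription factors that bind DNA as monomers. Nr0b1, or Dax1, and Nr0b2, or Shp, encode unusual receptors without the DNA-binding domain of the superfamily, which attach to other nuclear receptors, the NR5A proteins among them, and mostly repress them. Nr5a1 is required for the formation of gonads and adrenals and drives steroidogenic genes, Nr5a2 supports Pou5f1 expression in the epiblast and in ESCs and regulates bile acid synthesis in the liver, Nr0b1 takes part in the pluripotency network of mouse ESCs, and Nr0b2 carries the feedback that bile acids exert on their own synthesis.

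All cells were XY and of the C57BL/6 strain. The tcESCs carry tesco-cfp, a fluorescent reporter of the testis enhancer of Sox9, and were kept in N2B27 2iLIF medium. The tc;Sf1ESCs are 1 clone of tcESCs that survived G418 after electroporation with pCDNA3-Sf1, a vector that expresses an Sf1 cDNA constitutively. Sertoli cell-like cells (SCLCs) were CFP-positive cells sorted at day 12 from cultures of that same clone, which had passed through CHIR99021 and TTNPB and then CHIR99021, BMP7 and FGF9. The tod-PGCLCs were primordial germ cell-like cells sorted by their Prdm1-gfp reporter and a surface marker at day 6 from testicular organoids, in which epiblast-like cells of a different ESC line, XY;Prdm1-gfp, were aggregated with tc;Sf1ESC-derived somatic cells. Their own genome therefore holds no Sf1 transgene. The TESCO enhancer is known to be bound by NR5A1 itself, so the gate that defined the SCLCs was not independent of Nr5a1. Each group has 2 libraries. In these bulk libraries fewer cells of a type cannot be told apart from less RNA per cell.

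The libraries hold 25411033 to 30680191 counts on genes, at which 3 counts are 0.0978 to 0.118 CPM (counts per 1000000 counts on genes). These limits cover counting error only. The study states that its experiments were replicated biologically, but the labels do not say what separates the 2 libraries of a group, so p-values measure the spread between these libraries, part of which may be technical. Markers of other cell types moved with the groups. Of 12 visceral endoderm and hepatic markers 11 were tested, and all 11 were called higher in SCLCs against tcESCs, where 42.7% of all genes were called in either direction. The summed level of the 12 was 1980 and 3424 CPM in the 2 SCLC libraries against 10.3 to 15.7 CPM in the 4 ESC libraries and 33.6 and 42.1 CPM in the tod-PGCLC libraries. Ttr and Afp, plasma proteins made by that endoderm, had 1240 and 3411 and 604 and 1400 counts in the SCLC libraries, whereas no ESC library held more than 6. Genes were tested at a mean count above 10 over the libraries fitted, which Ttr and Afp reached only through SCLCs. Such genes could only be called higher there, so the 11 of 11 is partly fixed by that filter. The 14 Sertoli markers summed to 582 and 598 CPM in SCLCs, of which Gata4 made up 423 CPM, to 188 and 213 CPM in tod-PGCLCs and to 20.2 to 34.3 CPM in ESCs. Of those tested, 6 of 9 rose and 0 fell in SCLCs against tcESCs, 7 and 0 against tc;Sf1ESCs, and 6 of 10 were higher and 0 lower in tod-PGCLCs than in tcESCs, while 4 were higher and 4 lower in tod-PGCLCs than in SCLCs. These called shares of 66.7%, 77.8%, 60% and 80% stand beside 42.7%, 42.2%, 29.4% and 38.0% of all genes in the same comparisons. Among the defining Sertoli genes, Sox9 had 206 and 130 counts in SCLCs, whereas Amh had 10 and 22 counts there and 15 to 24 in ESCs and Dhh had 5 and 1. Fshr and Etd, 2 further Sertoli markers named after their values were seen, were at 0 in SCLCs. Other genes of the list were called higher in SCLCs, and 0 of those tested were called lower. Among the higher ones, Vnn1 was at 51.5 CPM against 0.633 in tc;Sf1ESCs and Inha at 8.60 CPM against 0.180 in tcESCs. The name SCLC is kept here as the study's label. The part of these other cell types in the results below was not tested.

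The bases before the transcription start sites are shown first, because Nr5a2 and Nr0b1 were both called lower in SCLCs than in either ESC line and because NR5A proteins bind the element TCAAGGTCA. RefSeq promoter tables for GRCm38.p6 matched 3 of the 4 genes, with 2 windows for Nr5a2. Each window was cut to the 250 bases before the start site and searched on both strands for TCAAGGTCA, for AAGGTCA and for AGGTCA, which lie within it, and for TCAAGG, which overlaps them. The windows below are written from 5′ to 3′ on the strand of the gene, with the matches in capitals. They are chr1:136960449-136960698 (minus strand) for the outer start site of Nr5a2, chrX:86191525-86191774 (plus strand) for Nr0b1 and chr4:133553126-133553375 (plus strand) for Nr0b2.
Nr5a2: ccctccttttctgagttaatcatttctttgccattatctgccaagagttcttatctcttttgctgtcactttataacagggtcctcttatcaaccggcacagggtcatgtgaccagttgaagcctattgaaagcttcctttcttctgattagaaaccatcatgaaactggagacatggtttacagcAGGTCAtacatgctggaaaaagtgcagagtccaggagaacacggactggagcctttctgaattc
Nr0b1: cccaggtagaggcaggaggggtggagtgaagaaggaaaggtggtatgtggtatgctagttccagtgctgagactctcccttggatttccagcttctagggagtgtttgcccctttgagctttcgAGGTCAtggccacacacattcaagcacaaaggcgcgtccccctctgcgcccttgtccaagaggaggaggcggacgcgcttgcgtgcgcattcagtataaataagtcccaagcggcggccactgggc
Nr0b2: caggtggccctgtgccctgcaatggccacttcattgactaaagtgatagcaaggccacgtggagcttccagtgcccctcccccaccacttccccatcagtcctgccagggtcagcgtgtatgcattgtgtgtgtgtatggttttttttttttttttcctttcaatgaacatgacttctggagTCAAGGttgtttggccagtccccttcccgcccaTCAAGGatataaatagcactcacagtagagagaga
The Nr5a2 window held AGGTCA with its first base 64 bases before the start site, and the Nr0b1 window held AGGTCA 126 bases before it. TCAAGG occurred in the Nr0b2 window at 68 and at 35 bases before the start. The inner Nr5a2 window, chr1:136953631-136953880, matched none of the 4 motifs, and none of the windows held the whole TCAAGGTCA. Among 32851 promoter windows of the same length, 14.0% held AGGTCA, 12.5% held TCAAGG, 4.08% held AAGGTCA and 0.387% held TCAAGGTCA on either strand. These matches are of letters only.

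By the GENCODE M21 annotation of GRCm38, Nr5a1 (ENSMUSG00000026751) lies on chromosome 2 from 38692656 to 38714542 on the minus strand, Nr5a2 (ENSMUSG00000026398) on chromosome 1 from 136842571 to 136960448 on the minus strand, Nr0b1 (ENSMUSG00000025056) on chromosome X from 86191764 to 86195947 on the plus strand and Nr0b2 (ENSMUSG00000037583) on chromosome 4 from 133553376 to 133556536 on the plus strand. Nr5a1 has 3 annotated transcripts and Nr5a2 has 6, against 1 each for the NR0B genes, and their joined exons span 4241, 5899, 1808 and 1132 bases in that order. The longest run common to transcripts of Nr5a1 and Nr5a2 is the 20 bases ttgaagcagcagaagaaagc, and no pair among the 4 genes shares a run of 50 bases, the length of a read. Nr5a1os, an antisense transcript whose exons do not overlap those of Nr5a1, was the only annotated gene to overlap any of the 4, and had 2 counts in 1 tod-PGCLC library and 0 in the other 7 libraries.

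Nr5a1, the activator of gonadal and adrenal genes, was at the edge of detection in tcESCs and rose at both steps towards SCLCs. The 2 tcESC libraries held 1 and 0 reads of it, against 52 and 30 in tc;Sf1ESCs, 341 and 535 in SCLCs, and 6 and 5 in tod-PGCLCs. The libraries of no 2 groups overlapped. How often this holds over all genes was not counted, and between tcESCs and tod-PGCLCs it rests on at most 6 reads per library. These counts correspond to 0.0197 CPM ± 0.0278 in tcESCs, 1.54 ± 0.652 in tc;Sf1ESCs, 15.6 ± 3.91 in SCLCs and 0.203 ± 0.0209 in tod-PGCLCs (SD, n = 2). Reads from the Sf1 cDNA and from the gene itself are counted on the same gene ID, so the 2 sources cannot be told apart in tc;Sf1ESCs and SCLCs. The tod-PGCLCs were sorted from organoids that also held tc;Sf1ESC-derived cells. Whether reads of those cells are among their 6 and 5 was not tested.

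**Figure D1:**
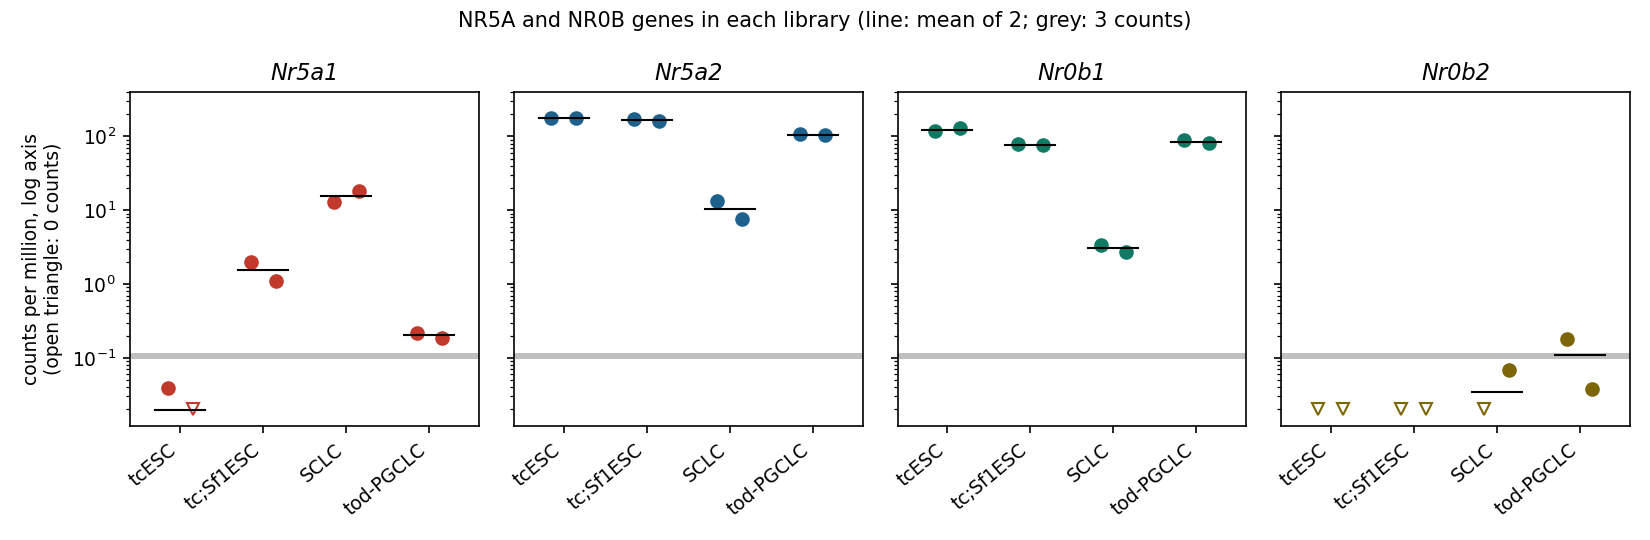
Level of each gene in CPM in each of the 8 libraries on a log axis, with the mean of 2 libraries as a line, 0 counts as open triangles and the range that 3 counts stand for as a grey band. Nr5a1 was highest in SCLCs at 15.6 CPM, where Nr5a2 and Nr0b1 were lowest, at 10.5 and 3.06 CPM, and Nr0b2 stayed around or under the grey band in every group.

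The quasi-likelihood test of edgeR was used, p-values were adjusted over all tested genes by the Benjamini-Hochberg method, and a gene was called at a fold change over 2 with an adjusted p under 0.05. In tc;Sf1ESCs against tcESCs the calls took 11.7% of 16481 tested genes, and 1 of the 3 members that could be tested, Nr5a1, was among them. The ratio of summed Nr5a1 CPM was 85.8, with an exact 95% interval for counting error from 15 to 3430. The fitted log2 fold change was 6.11 (SE 0.829, edgeR, adjusted p = 0.00193), a value that depends on the prior count because tcESCs held a single read, and it was 8.42 without tcESC replicate 1 and 5.14 without tcESC replicate 2. By this value it ranked 5 from the highest of all genes tested.

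From tc;Sf1ESCs to SCLCs, which descend from the same clone, Nr5a1 rose 10.5-fold (log2 fold change 3.39, SE 0.337, edgeR, adjusted p = 8.06e-05). In this comparison 42.2% of all genes tested were called, and all 3 tested members were. By fitted fold change Nr5a1 ranked 1188 from the highest of 16481 genes. Against tcESCs the ratio of summed CPM was 884 (exact 95% interval 158.2 to 34949), with a fitted log2 fold change of 9.51 (SE 0.618, edgeR, adjusted p = 9.63e-06), 11.8 without tcESC replicate 1 and 8.52 without tcESC replicate 2. There 42.7% of genes were called, again with all 3 tested members. These comparisons share libraries and are not independent of each other.

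In tod-PGCLCs the level of Nr5a1 was 0.133 times that of tc;Sf1ESCs (exact 95% interval 0.0639 to 0.25), a log2 fold change of -2.98 (SE 0.504, edgeR, adjusted p = 0.000807), in a comparison in which 32.7% of genes were called and 1 member was. Against SCLCs it was lower by a log2 fold change of -6.37 (SE 0.428, edgeR, adjusted p = 2.62e-06), with 38.0% of genes called and all 3 tested members among them. The 11 reads of tod-PGCLCs against the 1 read of tcESCs gave a ratio of 11.4 (exact 95% interval 1.66 to 491) and the 1 call of a member in a comparison with 29.4% of genes called (log2 fold change 3.14, SE 1.18, edgeR, adjusted p = 0.0440). Nr5a1 passed the filter of a mean count above 10 in this comparison only through its counts in SCLCs and tc;Sf1ESCs, since the 4 libraries compared hold 12 reads, and with these 4 alone it was not tested. The call was lost without either tcESC library (edgeR, log2 fold change 5.44 and adjusted p = 0.0559 without replicate 1, and 2.13 and adjusted p = 0.210 without replicate 2) and without either tod-PGCLC library (adjusted p = 0.126 and 0.0937). The order of Nr5a1 was therefore SCLCs, tc;Sf1ESCs, tod-PGCLCs and tcESCs, and the last 2 were separated only by a call that did not hold.

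Nr5a2, the NR5A receptor of the epiblast and liver, was lowest where Nr5a1 was highest. It had 4553 and 5417 counts in tcESCs, 4427 and 4527 in tc;Sf1ESCs, 355 and 220 in SCLCs, and 2970 and 2769 in tod-PGCLCs. Both SCLC libraries lay far under the other 6, and among these 6 the tod-PGCLC libraries were lowest. The means were 177.9 CPM ± 1.85 in tcESCs, 167.2 ± 5.08 in tc;Sf1ESCs, 10.5 ± 4.12 in SCLCs and 106.1 ± 2.54 in tod-PGCLCs (SD, n = 2). Between tc;Sf1ESCs and tcESCs Nr5a2 differed by -0.08 on the log2 scale (SE 0.183, edgeR, adjusted p = 0.788), which was not called, and the ratio of summed CPM was 0.940 (exact 95% interval 0.913 to 0.967, counting error only).

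In SCLCs Nr5a2 was lower than in tcESCs by 16.3-fold (log2 fold change -4.03, SE 0.219, edgeR, adjusted p = 4.20e-06) and lower than in tc;Sf1ESCs by 15.5-fold (log2 fold change -3.95, SE 0.219, edgeR, adjusted p = 4.62e-06). Only 1.80% of the genes tested had a lower fold change against tcESCs. The 2 SCLC libraries differed, with 13.4 CPM in replicate 1 and 7.56 CPM in replicate 2, and the fitted value against tcESCs was -4.47 without replicate 1 and -3.67 without replicate 2. The same 2 libraries held 727 and 518 CPM of 6 summed pluripotent cell markers and 1980 and 3424 CPM of the summed visceral endoderm and hepatic markers, in that order, and the part of either in the level of Nr5a2 was not tested. Nr5a1 had the reverse order, with 12.9 and 18.4 CPM.

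The level of Nr5a2 in tod-PGCLCs, which come from another ESC line, stood between those of the ESCs and SCLCs. It was 9.28-fold higher than in SCLCs (log2 fold change 3.21, SE 0.195, edgeR, adjusted p = 1.50e-06). Against tcESCs the log2 difference was -0.82 (SE 0.168, edgeR, adjusted p = 0.00269) and against tc;Sf1ESCs -0.74 (SE 0.168, edgeR, adjusted p = 0.00407), both past the adjusted p but under the 2-fold limit and so not called. The levels thus ran from tcESCs over tc;Sf1ESCs and tod-PGCLCs to SCLCs, with no detectable difference between the first 2.

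**Figure D2:**
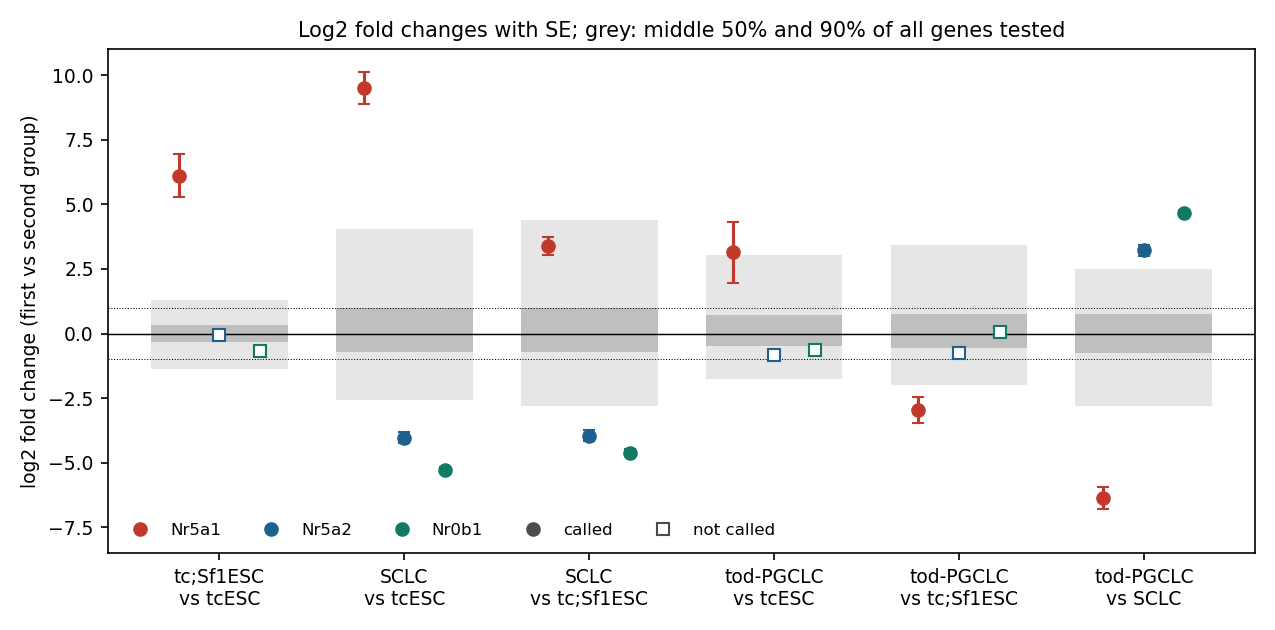
Log2 fold changes (first against second group) of the 3 tested genes in the 6 comparisons, with SE bars, filled circles where called and open squares where not. The dark and light grey boxes hold the middle 50% and 90% of all genes tested. In SCLCs against tcESCs the values were 9.51, -4.03 and -5.28 for Nr5a1, Nr5a2 and Nr0b1, all outside the light box.

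Nr0b1, the repressive partner that ESCs express, followed Nr5a2 more than Nr5a1. Its counts were 2996 and 4000 in tcESCs, 2028 and 2089 in tc;Sf1ESCs, 90 and 79 in SCLCs, and 2440 and 2135 in tod-PGCLCs. The SCLC libraries were again far under all others, and the tcESC libraries were the highest. These are 124.1 CPM ± 8.82, 76.9 ± 1.94, 3.06 ± 0.481 and 84.5 ± 5.81 (SD, n = 2) in the same order.

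Unlike Nr5a2, Nr0b1 differed between the 2 ESC lines. The level in tc;Sf1ESCs was 0.616 times that of tcESCs (log2 fold change -0.68, SE 0.0888, edgeR, adjusted p = 0.00171), past the adjusted p but under the 2-fold limit and therefore not called, and with 1 clone the transgene and other features of that clone cannot be told apart. In SCLCs it fell, with log2 fold changes of -5.28 against tcESCs (SE 0.118, edgeR, adjusted p = 1.31e-07) and -4.60 against tc;Sf1ESCs (SE 0.117, edgeR, adjusted p = 2.22e-07), which are 38.9-fold and 24.3-fold. Against tcESCs only 0.777% of the genes tested had a lower value. In tod-PGCLCs it was 25.3-fold higher than in SCLCs (log2 fold change 4.66, SE 0.119, edgeR, adjusted p = 2.36e-08), and the difference from tcESCs was -0.63 (SE 0.0902, edgeR, adjusted p = 0.000359), under the fold limit. From tc;Sf1ESCs it differed by 0.05 on the log2 scale (SE 0.0906, edgeR, adjusted p = 0.656). The order of Nr0b1 was tcESCs, tod-PGCLCs, tc;Sf1ESCs and SCLCs, with no detectable difference between tod-PGCLCs and tc;Sf1ESCs.

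Nr0b2, the bile acid-responsive repressor, was at or near 0 throughout. It had 0 counts in all 4 ESC libraries, 0 and 2 in SCLCs, and 5 and 1 in tod-PGCLCs, and did not pass the filter of a mean count above 10, so it was not tested. A count of 0 over 2 libraries allows up to 0.0535 CPM in tcESCs and 0.0560 CPM in tc;Sf1ESCs, taken as 3 counts over the group. When every gene with at least 1 count was tested, Nr0b2 was called in none of the 6 comparisons, and its lowest unadjusted p was 0.0564, in tod-PGCLCs against tcESCs (edgeR). A difference was not detectable at this depth.

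Levels of different genes were compared per length, as CPM per kilobase of joined exons. On this scale the summed level of the 2 NR5A genes was 30.2 ± 0.320 in tcESCs, 28.7 ± 1.01 in tc;Sf1ESCs, 5.46 ± 0.222 in SCLCs and 18.0 ± 0.435 in tod-PGCLCs (SD, n = 2). The rise of Nr5a1 in SCLCs was thus smaller in absolute level than the loss of Nr5a2. Nr5a1 made up 0.0153% ± 0.0216 of the sum in tcESCs, 1.26% ± 0.491 in tc;Sf1ESCs and 0.265% ± 0.0210 in tod-PGCLCs, but 57.2% and 77.2% in the 2 SCLC libraries. In both SCLC libraries, and in no other, Nr5a1 was the more abundant of the 2. The joined exons of Nr5a1 span 4241 bases, but its longest annotated transcript has 2994. The length of the Sf1 cDNA is not given in the sources used here. The level of Nr5a1 per length in tc;Sf1ESCs and SCLCs may therefore be too low by an unknown amount. With the longest transcript as length its shares in the SCLC libraries were 60.3% and 79.4%. Per length, Nr0b1 stood at 2.28 ± 0.186 times the NR5A sum in tcESCs, 1.48 ± 0.0150 times in tc;Sf1ESCs, 0.311 ± 0.0613 times in SCLCs and 2.59 ± 0.116 times in tod-PGCLCs. Nr0b1 was thus above the NR5A sum in 6 libraries and under it in the 2 SCLC libraries. Against Nr5a2 alone it stood at 0.827 times in SCLC replicate 1 and 1.17 times in replicate 2. With the longest transcript as length these ratios were 0.664 and 0.940, so the order of the 2 genes in replicate 2 depended on the length used.

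**Figure D3:**
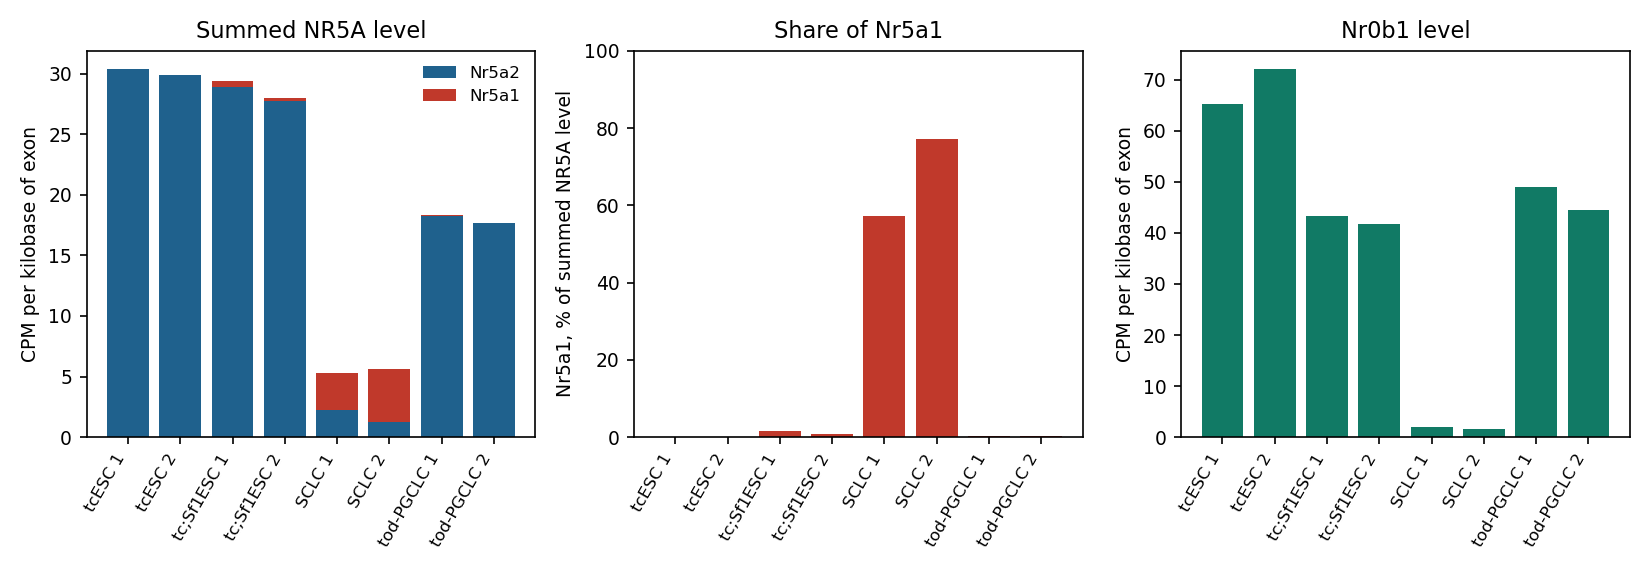
Left, level of Nr5a2 and Nr5a1 stacked, in CPM per kilobase of exon, in each library. Middle, Nr5a1 as a percentage of that sum, 57.2% and 77.2% in the SCLC libraries and at most 1.61% elsewhere. Right, level of Nr0b1 on the same scale, 1.88 and 1.5 in SCLCs and 41.7 to 72.1 elsewhere.

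Set among all 49 mouse nuclear receptor genes by mean level per length, Nr0b1 ranked 2 and Nr5a2 ranked 4 in both ESC lines. Esrrb, an orphan receptor of the pluripotency network, was first, with 150 CPM per kilobase in tcESCs and 132 in tc;Sf1ESCs against 68.7 and 42.5 for Nr0b1 and 30.2 and 28.3 for Nr5a2. Nr1h2, the widely expressed oxysterol receptor, ranked 3 with 34.4 and 35.0. In SCLCs the leading receptors were Nr1h2 at 28.8, the retinoid X receptor Rxrb at 18.3 and Hnf4a, a hepatic and endodermal receptor, at 16.7. There Nr5a1 came 15th with 3.69, Nr5a2 21st with 1.78 and Nr0b1 22nd with 1.69 CPM per kilobase. The level and place of Nr5a1 rest on its joined exons and may be understated where reads come from the Sf1 cDNA. In tod-PGCLCs Esrrb was first with 80.6, Nr0b1 ranked 2 with 46.7, Nr6a1, a germ cell nuclear factor known to repress Pou5f1, ranked 3 with 28.6 and Nr5a2 ranked 5 with 18.0, whereas Nr5a1 was 38th. Esrrb, Nr5a2 and Nr0b1 thus all stood among the first 5 receptors in ESCs and tod-PGCLCs, whereas in SCLCs Esrrb ranked 4 with 10.96 CPM per kilobase and the other two ranked 21 and 22.

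**Figure D4:**
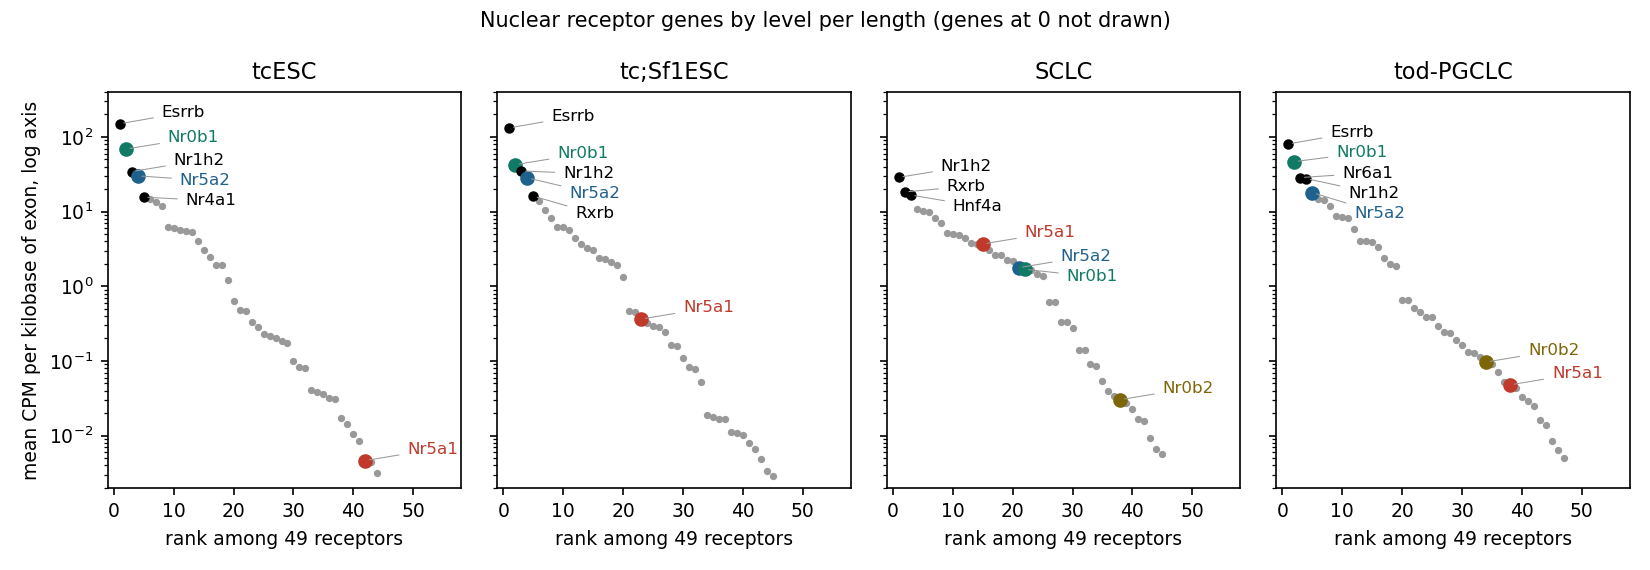
Mean level per length of each of the 49 nuclear receptor genes against its rank in each group, on a log axis, with Nr5a1, Nr5a2, Nr0b1 and Nr0b2 in colour and the 3 highest other receptors in black. Nr0b1 ranked second in 3 groups and 22nd in SCLCs.

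Of the 45 other nuclear receptors, 32 were tested in each comparison. In SCLCs 12 were called higher and 7 lower than in tcESCs, with a median log2 fold change of 0.39 over the 32 against 0.05 over all genes, and 11 and 6 against tc;Sf1ESCs. Pparg, the receptor of fat cell differentiation, had 2 and 5 counts in tcESCs and 108 and 336 in SCLCs, and Rarb, a retinoic acid receptor that is itself induced by retinoids, had 5 and 4 against 238 and 183. Esrrb was lower in SCLCs by a log2 fold change of -3.72 against tcESCs, at 66.3 CPM ± 30.5 against 908 ± 9.67 (SD, n = 2). Between the ESC lines only Hnf4a and the clock repressor Nr1d1 were called, at 9.28 CPM ± 0.416 against 3.03 ± 0.503 and at 17.3 ± 0.839 against 6.00 ± 0.645 (SD, n = 2), both higher in tc;Sf1ESCs. In tod-PGCLCs 6 were higher and 1 was lower than in tcESCs, 6 and 2 than in tc;Sf1ESCs, and 7 and 9 than in SCLCs. The called share of these receptors was 6.25% between the ESC lines, against 11.7% of all genes. It was 59.4% and 53.1% in SCLCs against tcESCs and tc;Sf1ESCs, where 42.7% and 42.2% of all genes were called. In tod-PGCLCs it was 21.9% against tcESCs, 25% against tc;Sf1ESCs and 50% against SCLCs, beside 29.4%, 32.7% and 38.0% of all genes.

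Genes known to be activated by NR5A1 in gonads and adrenals moved in both directions. Of 22 such genes 12 were tested. In tc;Sf1ESCs 1 was called higher than in tcESCs and 2 lower (25%, against 11.7% of all genes). Star, which carries cholesterol into mitochondria for steroid synthesis, had 183 and 226 counts in tcESCs and 452 and 446 in tc;Sf1ESCs (log2 fold change 1.22, SE 0.183, edgeR, adjusted p = 0.00287). Inhbb, a subunit of activin and inhibin, was lower at 0.965 CPM ± 0.219 against 14.5 ± 1.43 (SD, n = 2), and Vnn1, a pantetheinase of Sertoli cells, was lower at 0.633 against 1.68 CPM. Star did not stay high in SCLCs, where it had 148 and 233 counts, lower than in tc;Sf1ESCs by a log2 fold change of -1.25.

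In SCLCs 4 of the 12 were higher and 1 lower than in tcESCs, and 5 were higher and 3 lower than in tc;Sf1ESCs, with medians of 0.46 and 1.27. Inha, the inhibin alpha subunit, rose from 0.180 to 8.60 CPM against tcESCs, Sox9 from 0.170 to 6.12 CPM, and Vnn1 from 0.633 to 51.5 CPM against tc;Sf1ESCs. Insl3, a Leydig cell hormone, was lower than in either ESC line, at 0.962 CPM against 2.10 and 2.55. Cyp11a1 and Cyp17a1, which encode the first enzymes of steroid synthesis, had 5 and 37 and 35 and 56 counts in SCLCs. In tcESCs they had 8 and 1 and 0 and 1 counts. In tod-PGCLCs 2 were higher and 1 lower than in tcESCs, 4 and 1 than in tc;Sf1ESCs, and 1 and 4 than in SCLCs. The called shares in SCLCs were 41.7% against tcESCs and 66.7% against tc;Sf1ESCs, beside 42.7% and 42.2% of all genes. In tod-PGCLCs they were 25%, 41.7% and 41.7% against tcESCs, tc;Sf1ESCs and SCLCs, beside 29.4%, 32.7% and 38.0%. Several thus lay near the share over all genes, and no difference from it was tested.

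Regulators that act upstream of Nr5a1 in the gonadal ridge included genes that rose with it and genes that did not. Of 14 such genes 11 were tested, and 6 were higher and 3 lower in SCLCs than in tcESCs, with a median log2 fold change of 1.38 against 0.05 over all genes and a called share of 81.8% against 42.7%. Emx2, a homeobox factor of the urogenital ridge, had 0 counts in all 4 ESC libraries, 266 and 430 in SCLCs and 3 and 1 in tod-PGCLCs, so that SCLCs were at least 234-fold higher than tcESCs when 3 counts over the group stand for 0. Gata4, a zinc finger factor of gonad, heart and endoderm, had 47 and 72 counts in tcESCs, 171 and 184 in tc;Sf1ESCs, 11011 and 12551 in SCLCs and 86 and 152 in tod-PGCLCs. It was the 1 regulator called between the ESC lines (9.09% of those tested, against 11.7% of all genes), at a log2 fold change of 1.66 (SE 0.119, edgeR, adjusted p = 0.000189). Wt1, the Wilms tumour factor of gonad and kidney, was highest in tod-PGCLCs, at 11.5 CPM ± 0.724 against 1.53 ± 1.04 in SCLCs and 0.605 ± 0.0205 in tcESCs (SD, n = 2). Zfpm2, the cofactor of Gata4, and the homeobox gene Six4 were lower in SCLCs than in tcESCs, by log2 fold changes of -3.35 and -2.09. Against tc;Sf1ESCs 7 were higher and 3 lower in SCLCs (90.9%, against 42.2% of all genes). In tod-PGCLCs 5 were higher and 1 lower than in either ESC line (54.5%, against 29.4% and 32.7%), and 5 and 4 than in SCLCs (81.8%, against 38.0%). The median against tc;Sf1ESCs there was 1.42 as fitted and 0.71 with genes at 0 in a group set to 3 counts.

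Genes of the hepatic and bile acid axis, in which Nr5a2 and Nr0b2 act in the liver, rose in SCLCs while Nr5a2 fell and Nr0b2 stayed near 0. Of 22 genes 14 were tested in the SCLC comparisons, and 12 were higher and 1 lower than in tcESCs, with a median log2 fold change of 4.72 against 0.05 over all genes, and 11 and 1 than in tc;Sf1ESCs. The called shares were 92.9% and 85.7%, against 42.7% and 42.2% of all genes. Apoa1, the main apolipoprotein of high-density lipoprotein, had at most 1 count in any ESC library and 981 and 2002 in SCLCs. It passed the filter of a mean count above 10 only through SCLCs. The direction, called share and median of this list are therefore partly fixed by that filter. Foxa2, an endodermal pioneer factor, rose from 0.327 to 56.2 CPM against tcESCs, and Klb, the coreceptor of the bile acid-induced hormone FGF15, from 0.335 to 103 CPM against tc;Sf1ESCs. Hnf4a, which is also 1 of the other nuclear receptors and of the endoderm markers, had 1773 and 2749 counts in SCLCs against 82 to 265 in ESCs. Cyp7a1, the rate-limiting enzyme of bile acid synthesis, had 0 counts in all 8 libraries and was named after its values were seen. In tc;Sf1ESCs 2 were higher and 1 lower than in tcESCs (21.4%, against 11.7%), the receptor Fgfr4 at 3.36 against 0.988 CPM among the higher ones. In tod-PGCLCs, with 15 tested, 8 were higher and 1 lower than in tcESCs (60%, against 29.4%), 5 and 1 than in tc;Sf1ESCs (40%, against 32.7%), and 2 and 12 than in SCLCs (93.3%, against 38.0%). This list overlaps the visceral endoderm and hepatic markers, whose summed level was given above.

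Of the 22 genes of the pluripotency network, 0 were called higher and 13 lower in SCLCs than in tcESCs, with a median log2 fold change of -1.66, and 0 and 12 against tc;Sf1ESCs. The called shares were 59.1% and 54.5%, against 42.7% and 42.2% of all genes, and in the tod-PGCLC comparisons below 40.9%, 36.4% and 77.3%, against 29.4%, 32.7% and 38.0%. Fgf4, a growth factor that ESCs make, fell from 313 to 8.10 CPM and Tdgf1, a Nodal coreceptor, from 773 to 23.5 CPM. Pou5f1, which Nr5a2 is known to support, had 14013 and 18689 counts in tcESCs, 12879 and 13983 in tc;Sf1ESCs, 3162 and 2263 in SCLCs and 7860 and 7589 in tod-PGCLCs. Between the ESC lines 1 gene was called (4.55%, against 11.7% of all genes), Dnmt3l, a cofactor of DNA methylation, at 81.8 against 253 CPM. In tod-PGCLCs 1 was higher and 8 lower than in tcESCs, 2 and 6 than in tc;Sf1ESCs, and 13 and 4 than in SCLCs. Dppa3, an early germ cell gene, was the 1 that was higher than in tcESCs, at 168 CPM ± 19.1 against 25.3 ± 0.876, while Tbx3 and Klf4, factors of the naive state, were lower at 39.1 against 388 CPM and 64.1 against 487 CPM. Nr5a2 and Nr0b1 were within 2-fold of both ESC lines in the same tod-PGCLC libraries.

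Coregulators that NR5A and NR0B proteins bind had few calls. Of 23 genes 22 were tested, and the called share was 9.09% between the ESC lines, 27.3% and 36.4% in the SCLC comparisons, and 18.2%, 9.09% and 22.7% in the tod-PGCLC comparisons, each under the share over all genes, a difference that was not tested. In SCLCs 5 were higher and 1 lower than in tcESCs, and 7 and 1 than in tc;Sf1ESCs. Prox1, a homeobox corepressor of NR5A2, was at 0.771 CPM ± 0.200 in tcESCs and 20.0 ± 1.93 in SCLCs, a log2 fold change of 4.74 (SE 0.223, edgeR, adjusted p = 2.26e-06). Mamld1, a coactivator linked to male sexual development, was at 1.82 ± 0.0911 in tcESCs, 0.560 ± 0.0259 in tc;Sf1ESCs, 32.9 ± 11.1 in SCLCs and 0.112 ± 0.0551 CPM in tod-PGCLCs (SD, n = 2). The corepressor Ncor1 was lower in SCLCs than in tcESCs at 222 against 463 CPM, and Ddx20, a helicase that represses NR5A1, was lower than in tc;Sf1ESCs at 55.4 against 147 CPM. In tc;Sf1ESCs 0 were higher and 2 lower than in tcESCs, Mamld1 and the chromatin remodelling subunit Smarcd3. In tod-PGCLCs 1 was higher and 3 lower than in tcESCs, 0 and 2 than in tc;Sf1ESCs, and 1 and 4 than in SCLCs.

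**Figure D5:**
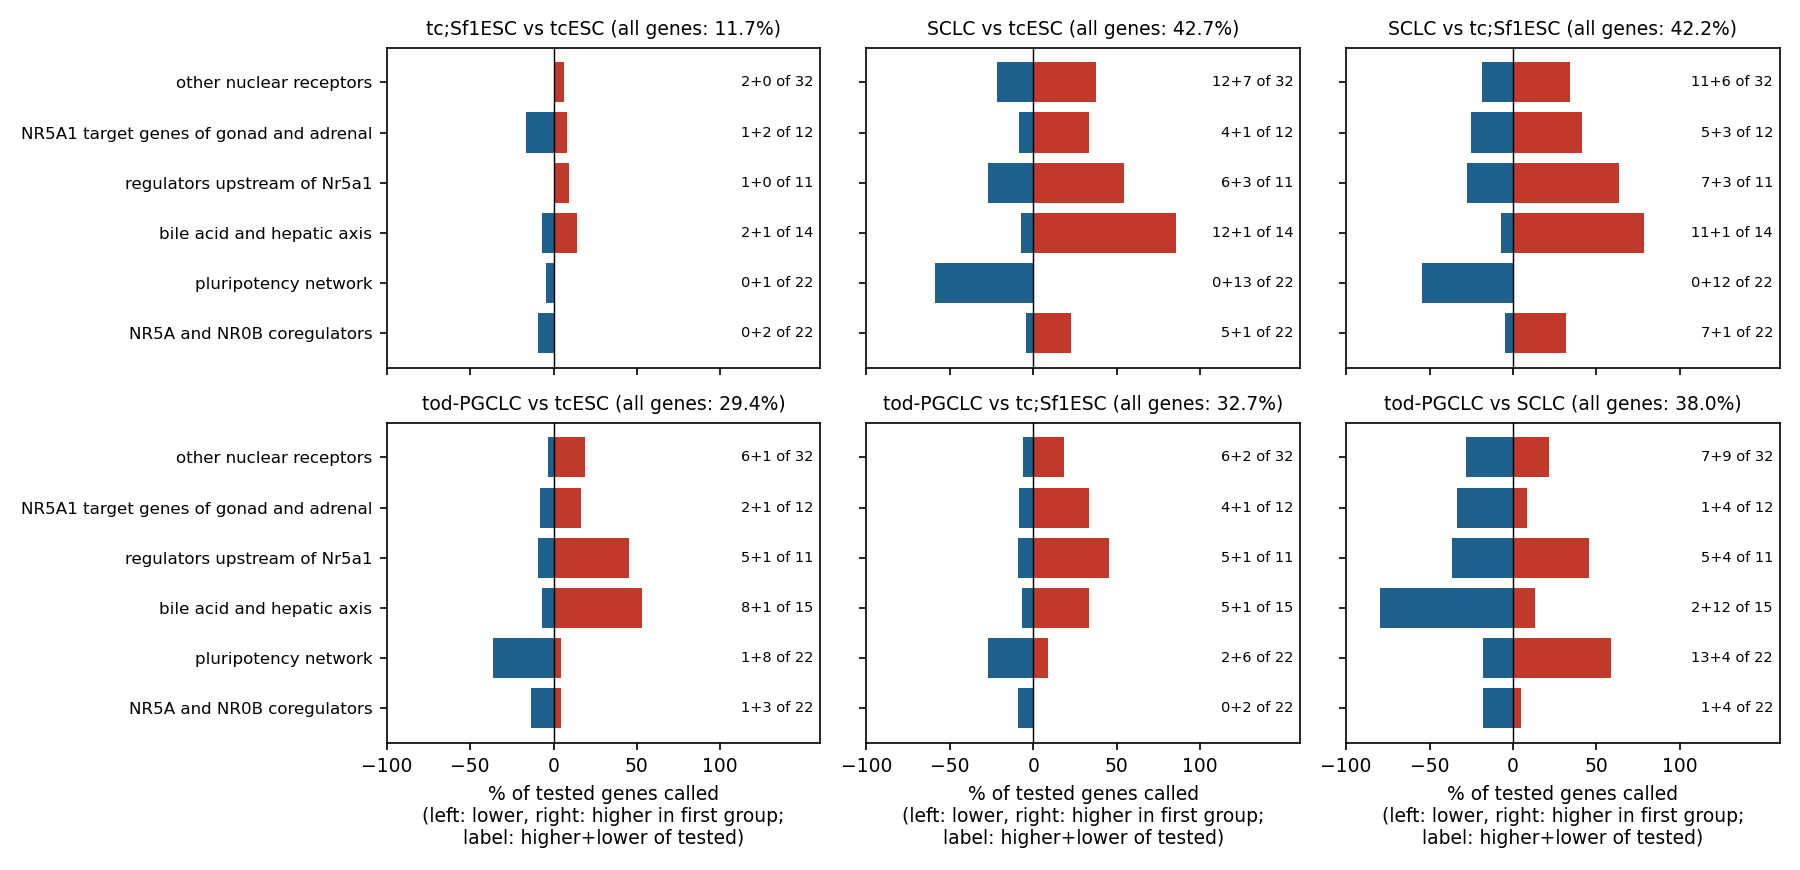
Percentage of the tested genes of each list that were called, to the right when higher and to the left when lower in the first group, in the 6 comparisons, with the numbers beside the bars and the share of all genes called in each title. In SCLCs against tcESCs 12 of 14 genes of the bile acid and hepatic axis were higher, and 13 of 22 of the pluripotency network lower.

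Some of the genes next to the 4 receptors were called in the same comparisons as the receptor beside them and others were not. Nr6a1, the germ cell nuclear factor, is on the same strand as Nr5a1 and ends 8828 bases from it. It had 1424 and 1796 counts in tcESCs, 903 and 990 in tc;Sf1ESCs, 3280 and 2837 in SCLCs and 8062 and 8652 in tod-PGCLCs, and was called, like Nr5a1, in SCLCs against both ESC lines (log2 fold changes 1.01 and 1.70), but its highest group was tod-PGCLCs, where Nr5a1 had 6 and 5 counts. Psmb7, on the other side, ran from 146 CPM in SCLCs to 220 CPM in tod-PGCLCs and was called in no comparison. Nek6 was called lower in tc;Sf1ESCs than in tcESCs at 9.95 against 25.2 CPM, and higher than in tc;Sf1ESCs both in SCLCs, as Nr5a1 was, and in tod-PGCLCs (log2 fold changes 1.59 and 1.30). Olfml2a, with 0 counts in the ESC libraries, was at least 36.0-fold higher in SCLCs and 59.1-fold higher in tod-PGCLCs than in tcESCs when 3 counts over the group stand for 0. Beside Nr5a2, Zfp281 was called in the same 3 comparisons as Nr5a2 and in the same directions, with log2 fold changes of -1.18 in SCLCs against tcESCs, -1.11 against tc;Sf1ESCs and 1.16 in tod-PGCLCs against SCLCs, at a distance of 212518 bases. Kif14 was called in no comparison, and Ptprc and Atp6v1g3 had at most 2 and 0 counts. The 4 neighbours of Nr0b1, Samt3, 5430427O19Rik, Mageb4 and Il1rapl1, were not tested, with at most 28 counts in any library. Those of Nr0b2 were read at 213 counts or more in every library while Nr0b2 itself was at most at 5, and Nudc, 7380 bases away, had 3505 to 7480 counts. The median log2 fold change of chromosome X in SCLCs against tcESCs was 0.18, against -5.28 for Nr0b1.

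Likeness of pattern was measured as the root mean square difference of log2 CPM over the 8 libraries, each gene centred on its own mean, among 14333 protein-coding genes. The 3 genes most like Nr5a2 were 2410141K09Rik (0.143), AI467606 (0.151) and Zfp980 (0.162). Zfp980, to take 1 of them, was at 50.6, 56.4, 3.48 and 28.3 CPM in tcESCs, tc;Sf1ESCs, SCLCs and tod-PGCLCs. Those most like Nr0b1 were Clca4a (0.238), Sept1 (0.306) and 2900011O08Rik (0.312), and Sept1 was at 250, 176, 10.8 and 202 CPM. Nr5a2 came 20th in likeness to Nr0b1 and Nr0b1 127th in likeness to Nr5a2, both at a difference of 0.56. For Nr5a1 the nearest were Trim30d (0.671), Pet2 (0.799) and Ankrd33b (0.799), a looser likeness, and with a prior count of 0.25 none of these 3 was still among the nearest 3. Nr5a2 and Nr0b1 stood at places 14172 and 14291 in likeness to Nr5a1. The 8 points are 4 groups of 2 libraries, so these values describe likeness and carry no test.

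Marker lists of further cell types were read in the same way. The 7 gonadal stroma markers summed to 971 and 986 CPM in SCLCs, of which Pdgfra made up 804 CPM, against at most 8.2 CPM in ESCs and 33.6 and 35.8 CPM in tod-PGCLCs. The 10 trophectoderm markers summed to 829 and 1075 CPM in SCLCs, 157 to 243 CPM in ESCs and 380 and 446 CPM in tod-PGCLCs. Of 9 tested, 6 were higher and 2 lower in SCLCs than in tcESCs (88.9%, against 42.7% of all genes). The ESC lines also differed, with 0 of these 9 higher and 5 lower in tc;Sf1ESCs than in tcESCs (55.6%, against 11.7%). Krt18 was at 0.823 against 26.4 CPM. The keratins Krt18 and Krt8 made up most of the sum in SCLCs at 420 and 381 CPM, Cdx2 had 107 and 306 counts in SCLCs against 50 to 137 in ESCs, whereas Eomes had 161 and 251 against 223 to 904. The 8 pregranulosa markers summed to 206 CPM in both SCLC libraries and 24.2 to 38.4 CPM in ESCs. Of 6 tested, 5 were higher and 1 lower in SCLCs than in tcESCs (all called, against 42.7% of all genes), with Runx1 at 81.8 CPM and Fst at 79.4 CPM in SCLCs making up most of the sum, whereas Foxl2 had 2 to 8 counts in every library. The 8 steroidogenic markers summed to 7.9 and 12.6 CPM in SCLCs and 9.4 to 20.0 CPM in ESCs. Of 4 tested, 1 was higher and 1 lower in SCLCs than in tcESCs (50%, against 42.7% of all genes), the higher one being Cyp17a1 with the counts given above, while Lhcgr and Cyp11b1, named after their values were seen, were at 0 in SCLCs. The 6 pluripotent cell markers summed to 3121 to 3651 CPM in ESCs and 2533 and 2576 CPM in tod-PGCLCs. The 9 germ cell markers summed to 1097 and 1098 CPM in tod-PGCLCs and 416 to 574 CPM in the other libraries, and Prdm1, which drove the sorting reporter, had 4919 and 5140 counts there against 201 to 660 elsewhere.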

How the data were processed

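RNA-seq libraries of poly-A RNA were strand-specific and read as paired ends of 50 bases. The authors deposited raw counts per Ensembl gene ID for each of the 8 libraries, without normalisation or pooling. The submitters' processing notes name Trim Galore, STAR 2.4.0, Picard, HTSeq and DESeq2, with GRCm38 as the genome. The strand setting of the counting and the annotation release are not given in the sources used here, and a read that matches several places was left uncounted, 20.5% to 27.5% of each library. Of 46078 IDs, 45229 matched GENCODE M21, which gave symbols, positions and lengths.

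Genes with a mean count above 10 were tested with edgeR 4.0.16 in R 4.3.3 by the quasi-likelihood test after TMM scaling, with Benjamini-Hochberg adjustment over all of them. Comparisons among ESCs and SCLCs used their 6 libraries, with 16481 genes, and those with tod-PGCLCs used all 8, with 16707 genes. The procedure was tested on simulated data. DESeq2 1.42.0, other scalings and filters, a test against a 2-fold change (glmTreat), a replicate block and the removal of each library served as alternatives. The ratios of summed counts carry exact 95% intervals that cover counting error only. Promoter sequences were taken from RefSeq (GRCm38.p6).

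The 4 genes and all gene lists were chosen with earlier results of these data known. Named were the 4 genes, their 2 nearest protein-coding neighbours on each side, at most 2 increases and 2 decreases per list and comparison among called genes averaging at least 1 CPM, the 3 leading other receptors per group, the 3 genes most like each member and, of each marker list, some of its 3 defining genes. Cyp7a1, Fshr, Etd, Lhcgr and Cyp11b1 were named outside this rule, after their values were seen.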

Additional observations from a re-analysis of the deposited data

How the results depend on the processing

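Member log2 fold changes recomputed under an alternative kept their direction and stayed called or not called 288 times, lost the call 7 times and changed sign 1 time. This covers the call only. Under glmTreat the uncalled Nr0b1 difference between the ESC lines no longer passed the adjusted p. Under at least 1 alternative this also held for Nr5a2 and Nr0b1 in tod-PGCLCs against tcESCs, and for Nr5a2 in tod-PGCLCs against tc;Sf1ESCs. The call of Nr5a1 between tod-PGCLCs and tcESCs was the one that depended on the setting. It was lost in the edgeR test against a 2-fold change (glmTreat, 3.14, adjusted p = 0.177) and with DESeq2 without the filter on low counts, an alternative chosen after seeing the data (3.41, adjusted p = 0.0518), and leaving out 1 library gave values from 2.13 to 5.44 (edgeR, adjusted p 0.0287 to 0.210). In that comparison 0 members were called under glmTreat, the replicate block and unfiltered DESeq2, and 0 to 1 when 1 library was left out, against 1 as reported. With only the 4 libraries compared the count was also 0, because Nr5a1 did not pass the count filter and was not tested. The cause was not tested beyond the 11 reads against 1 on which the call rests. Nr0b1 between tod-PGCLCs and tc;Sf1ESCs, which was not called, changed sign, to -0.016, without todPGCLC replicate 1 (edgeR, adjusted p = 0.909), and leaving out 1 library gave values from -0.016 to 0.13. Over all genes, calls between the ESC lines went from 1922 to 594 under glmTreat and to 1119 to 2304 when 1 library was left out, and those of tod-PGCLCs against tcESCs from 4906 to 3078 under glmTreat. The share of Nr5a1 in the NR5A sum of tod-PGCLCs was 0.301% with the longest transcript as length, against 0.265%. With that length Nr0b1 stood at 0.940 times Nr5a2 in SCLC replicate 2, against 1.17 times with joined exons. Among list counts, 14 moved by over 1.5 times and 238 did not, the 14 all under glmTreat except that of the other nuclear receptors between the ESC lines without a count filter, which was 4.

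With the replicate number as a block, the Nr5a1 call between tod-PGCLCs and tcESCs was lost (3.14, edgeR, adjusted p = 0.0598), no other member call changed, and calls over all genes were 1918 between the ESC lines and 6313 between tod-PGCLCs and SCLCs. Deviations of same-numbered libraries correlated at -0.026 to 0.062 between groups, so the numbers are not read as pairs. Nr0b2 in all groups, and Nr5a1 in tcESCs and tod-PGCLCs, are limited by depth.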
